A study of Rattus norvegicus with 6 samples.

Results

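The smooth muscle contractile and adhesion cytoskeleton was examined in cerebral arteries of male rats taken 6 hours after subarachnoid haemorrhage (SAH), which is bleeding beneath the arachnoid membrane that covers the brain, and in those of sham-operated rats. The set holds 35 genes, which were chosen by name with earlier results of these data known. Shares of all genes set beside their counts are therefore a description. A gene counted as measured when a probe set was annotated to it alone, which held for 32 of the 35, out of 18166 genes measured in all. No probe set carried the name of the calponin gene Cnn1 or of the actin-binding LIM protein gene Ablim1 alone. The only probe set for Myl6, an essential light chain of myosin, was annotated to 4 genes and was left out.

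Each group held 3 Affymetrix arrays of the Gene ST type, numbered 1, 4 and 5 for SAH and 6, 7 and 8 for sham. The sources used here give no strain, no age and no time after sham surgery, and both groups underwent an operation per the labels. Whether each array stands for a separate animal is not said in the labels, and p-values therefore reflect only how far these samples spread, which may be technical. Values are log2 expression values, differences are SAH minus sham, and a gene was called when its limma p, adjusted by Benjamini-Hochberg over all 36495 probe sets, was under 0.05. Each measured member rested on 1 probe set, which does not separate splice forms, and actins and tropomyosins have close relatives whose RNA could add to a probe set's signal.

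Smooth muscle shortens when filaments of smooth muscle myosin pull on thin filaments of actin, which carry tropomyosin, caldesmon and calponin. The thin filaments end in dense bodies inside the cell and in dense plaques at its membrane, where talin, vinculin, filamin and alpha-actinin couple them to integrins and so to the matrix. PDZ and LIM domain proteins sit on these anchors, and the transcription factor SRF with its cofactor myocardin drives many of the genes through a DNA element named the CArG box. Loss of the contractile proteins among these, such as smooth muscle myosin and calponin, is a known mark of smooth muscle cells that leave the contractile state.

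Of the 32 measured members 2 fell after SAH, none rose and 30 did not pass limma's test at an adjusted p under 0.05. Over all 18166 genes, 0.330% were called lower and 0.963% higher. Those called were Smtn, for the actin-binding protein smoothelin, at 44.1% of its sham level, and Nexn, for the actin-binding protein nexilin, at 57.5%. At an unadjusted p under 0.05, 13 members were lower and none higher, against 10.5% of all genes lower and 8.16% higher. All 3 SAH values lay below all 3 sham values for 19 of the 32 members, against 15.4% of all genes, and for no member did they lie above, against 11.4%. Differences were below 0 for 29 of the 32 members (52.7% of all genes), and their median was -0.22 (all genes, -0.01). At least 1.5-fold lower were 4 members, Smtn, Itga7, Pdlim3 and Nexn, against 2.73% of all genes.

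**Figure D1:**
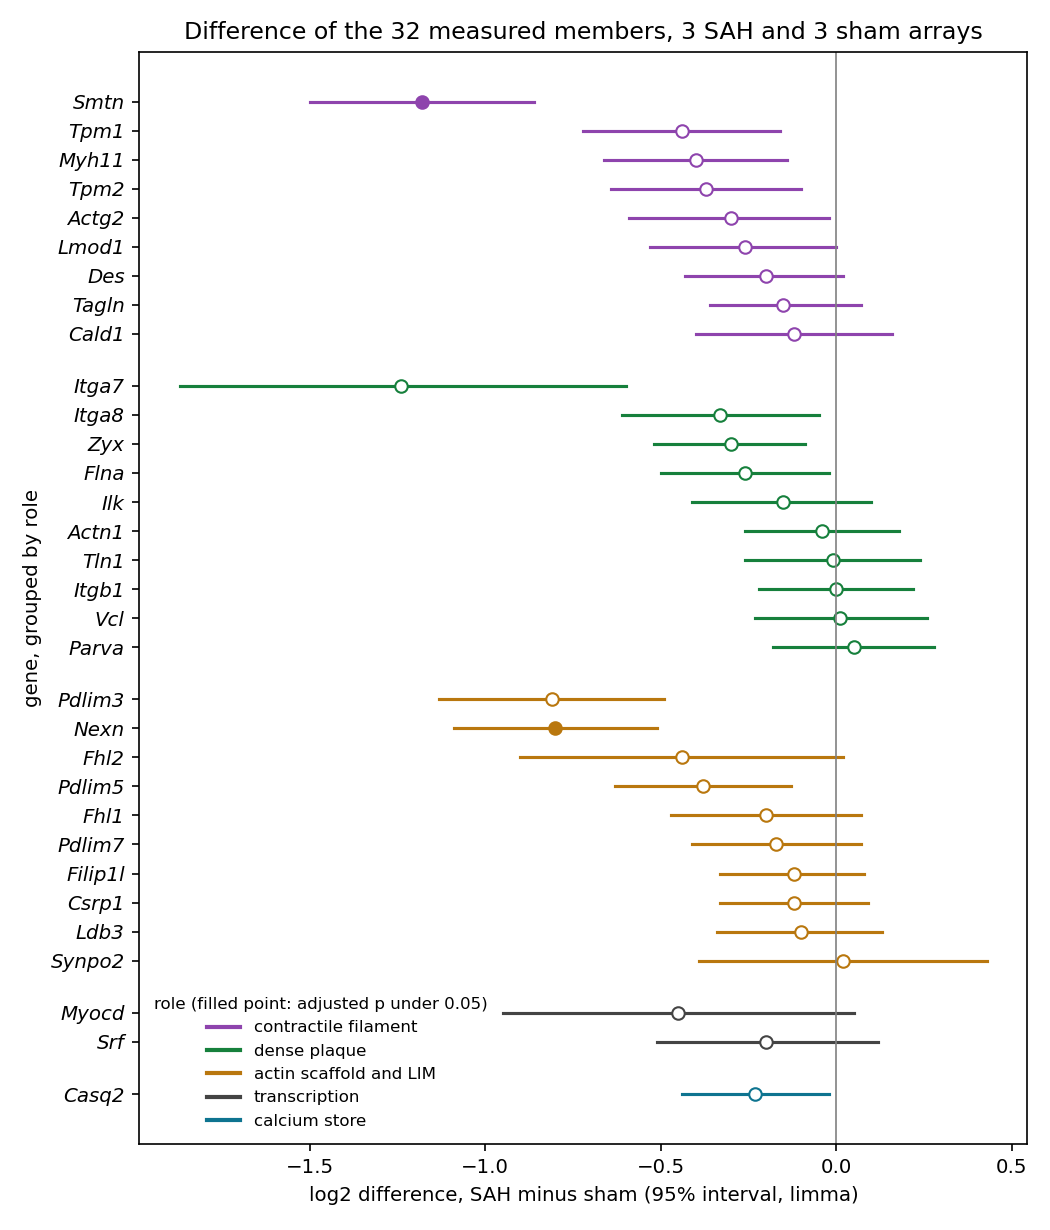
Log2 difference (SAH minus sham, x axis) of each of the 32 measured members, grouped by role (y axis), with limma's 95% interval, which is not adjusted for the number of genes. Filled points mark the called genes, Smtn at -1.18 and Nexn at -0.80, while Vcl, Tln1, Itgb1 and Parva lie between -0.01 and 0.05.

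In the contractile filament group 9 of 11 genes were measured. Of these 1 fell (0.330% of all genes were called lower), none rose and 8 did not pass. All 9 differences were below 0 (52.7% of all genes), and the median was -0.30. All 3 SAH values lay below all 3 sham values for 8 of the 9, against 15.4% of all genes. Smoothelin, which marks fully contractile smooth muscle, read 10.35, 10.23 and 10.02 on arrays 1, 4 and 5 of the SAH group, against 11.40, 11.54 and 11.21 on arrays 6, 7 and 8 of the sham group. Values below follow the same order of arrays. The lowest sham value stood 0.86 above the highest SAH value, the widest gap of any member. The difference of Smtn was -1.18 ± 0.13 (SE, n = 3 each; limma adjusted p = 0.0197). Its call was lost when SAH array 4 or 5 was left out (adjusted p of 0.0988 and 0.0701) and likewise for sham array 6 or 7 (0.125 and 0.108), with differences between -1.27 and -1.09 over all 6 fits that left out an array.

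The myosin motor and the tropomyosins had smaller differences, none of them called. Myh11, for the heavy chain of smooth muscle myosin, read 12.51, 12.66 and 12.51 after SAH and 13.04, 13.02 and 12.81 in sham, a difference of -0.40 ± 0.11 (SE; limma adjusted p = 0.174). The tropomyosin gene Tpm1 read 11.29, 11.49 and 11.18 against 11.84, 11.80 and 11.65, and its relative Tpm2 read 11.34, 11.57 and 11.51 against 11.92, 11.91 and 11.70. Tropomyosins wind along actin and govern where myosin may bind, and for both genes the SAH arrays lay below every sham array. The tropomyosin differences were -0.44 ± 0.12 for Tpm1 and -0.37 ± 0.11 for Tpm2 (SE; limma adjusted p of 0.169 and 0.211).

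Actg2, the gamma actin of smooth muscle, read 11.64, 11.96 and 12.01 after SAH and 12.19, 12.19 and 12.15 in sham (difference -0.30 ± 0.12, SE, and -0.19 without SAH array 1). Lmod1, for the filament nucleator leiomodin, differed by -0.26 ± 0.11. Its SAH values of 9.49, 9.51 and 9.38 lay just under the lowest sham value, 9.55 on sham array 8. The intermediate filament gene Des, for desmin, and Tagln, for the actin-binding protein SM22 alpha, were bright, with group values close together. Des read between 13.22 and 13.33 after SAH and between 13.39 and 13.51 in sham, and Tagln between 13.43 and 13.44 against 13.52 to 13.63. The highest value on any array was 14.07, and the log2 values of very bright probe sets can understate a difference. Cald1, for caldesmon, which restrains the actin and myosin cycle, was the filament gene whose groups overlapped, at 11.94, 12.20 and 12.16 against 12.27, 12.31 and 12.08 (difference -0.12 ± 0.12, SE). Of Actg2, Lmod1, Des, Tagln and Cald1 none passed (limma adjusted p between 0.32 and 0.718).

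**Figure D2:**
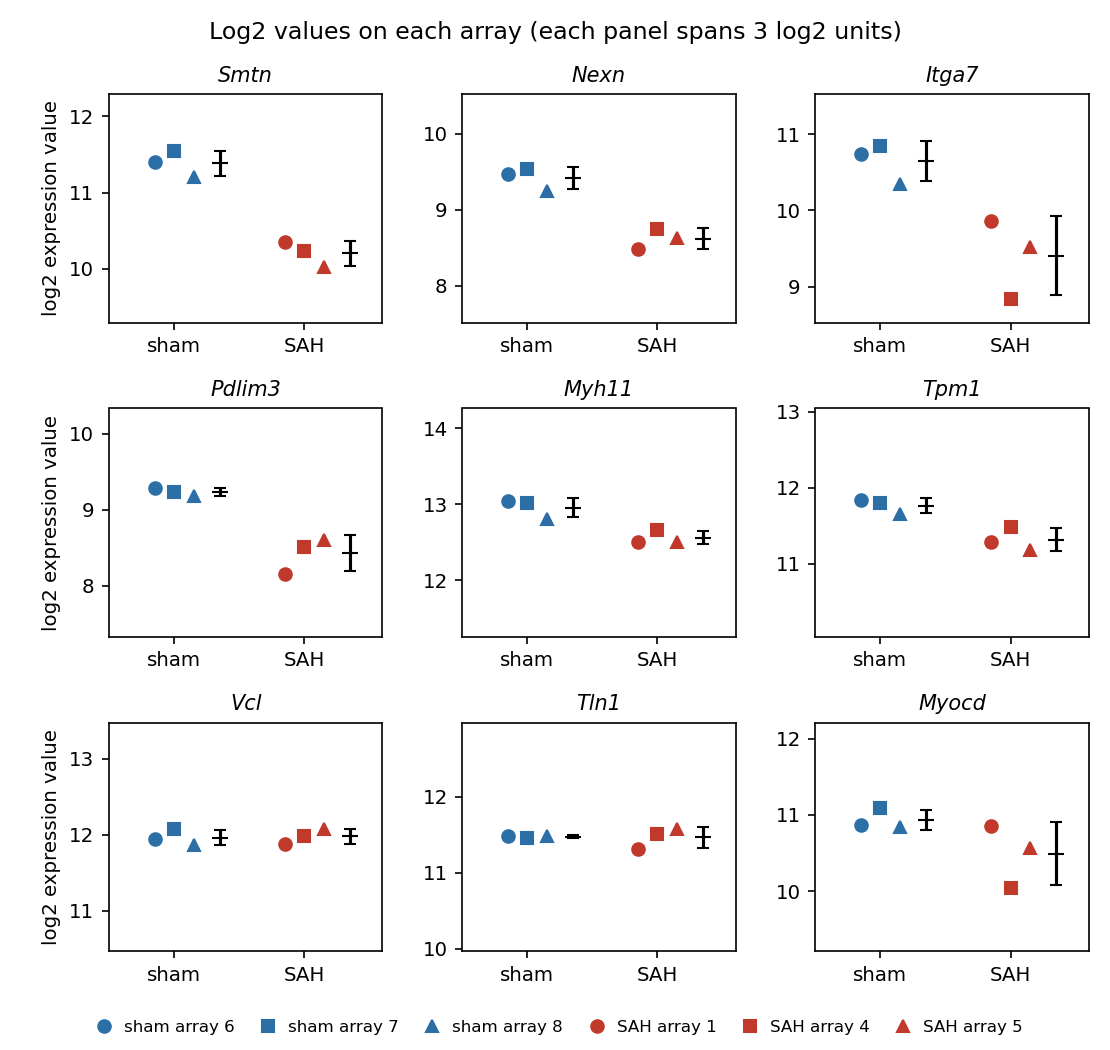
Log2 expression value (y axis) on each sham and SAH array for 9 members, with symbols marking the arrays and black bars the mean ± SD of 3 arrays. Smtn, Nexn, Itga7 and Pdlim3 show a gap between the groups of 0.48 or more, whereas the values of Vcl, Tln1 and Myocd overlap.

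In the dense plaque group all 10 genes were measured. None was called. At an unadjusted p under 0.05 in limma's test 4 were lower and none higher, against 10.5% and 8.16% of all genes. The median was -0.09, against -0.30 for the filament genes. The groups overlapped for 6 of the 10, and all SAH values lay below all sham values for 4 (15.4% of all genes). Vinculin, which links talin and alpha-actinin to actin, read 11.88, 11.99 and 12.07 after SAH (Vcl) and 11.95, 12.07 and 11.87 in sham, a difference of 0.01 with a 95% interval from -0.23 to 0.26. Talin, which binds the tails of integrins, differed by -0.01 (Tln1, interval -0.26 to 0.24). For alpha-actinin, which bundles actin at the plaque, the difference was -0.04 (Actn1, interval -0.26 to 0.18). Parva, for the actin-binding adaptor alpha-parvin, differed by 0.05 (interval -0.18 to 0.28). These intervals hold no 1.5-fold change, but they leave room for smaller ones.

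Other plaque genes were lower in value. Zyx, for zyxin, a LIM protein that gathers at plaques under tension, read 10.91, 10.93 and 11.01 after SAH and 11.26, 11.28 and 11.23 in sham. The replicates lay close together in both groups and did not overlap (difference -0.30 ± 0.09, SE; limma adjusted p = 0.196). Flna, for the actin crosslinker filamin A, read 12.85, 12.90 and 12.91 against 13.26, 13.17 and 13.01 (difference -0.26 ± 0.10, SE). Ilk, for the integrin-linked scaffold that binds parvin, overlapped between groups and differed by -0.15 ± 0.11 (-0.09 without sham array 7).

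The differences of the integrin genes ranged widely. Itga7, the laminin-binding alpha chain typical of contractile muscle, read 9.86, 8.84 and 9.52 after SAH and 10.74, 10.85 and 10.35 in sham. Its mean difference of -1.24 ± 0.27 (SE) was the largest of any member in size, but the 3 SAH arrays had an SD of 0.52, the widest of any member, and the gene was not called (limma adjusted p = 0.111). It passed without SAH array 1 (adjusted p = 0.0467) and with dim probe sets removed before the adjustment (0.0488). Itga8, an alpha chain that binds matrix ligands other than laminin, read 11.23, 11.32 and 11.43 against 11.60, 11.83 and 11.54 (difference -0.33 ± 0.12, SE; limma adjusted p = 0.264). Itgb1, the beta chain that pairs with both, had a mean of 12.63 in each group, with SDs of 0.05 and 0.06.

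The filament and plaque groups were set against each other on each array. The median of the filament genes, relative to each gene's sham mean, was -0.45, -0.23 and -0.33 after SAH and 0.06, 0.06 and -0.14 in sham. The median of the plaque genes was -0.21, -0.11 and -0.02 after SAH and 0.00, 0.08 and -0.10 in sham. The plaque medians of the groups thus overlapped, and the filament medians did not. The filament median minus the plaque median was -0.24, -0.11 and -0.31 after SAH against 0.05, -0.01 and -0.04 in sham. Between the group differences, the filament median of -0.30 stood 0.21 below the plaque median, and this gap ran from -0.25 to -0.19 over the alternatives tried. Removing dim probe sets, other eBayes options and averaging probe sets leave these differences as they are, so they could not move it. In the lists of other filament and other plaque genes described below, the medians were closer, at -0.16 and -0.09. No test was made of the contrast between the member groups. Their genes were chosen with earlier results of these data known and not drawn at random, and those within a group are not independent.

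**Figure D3:**
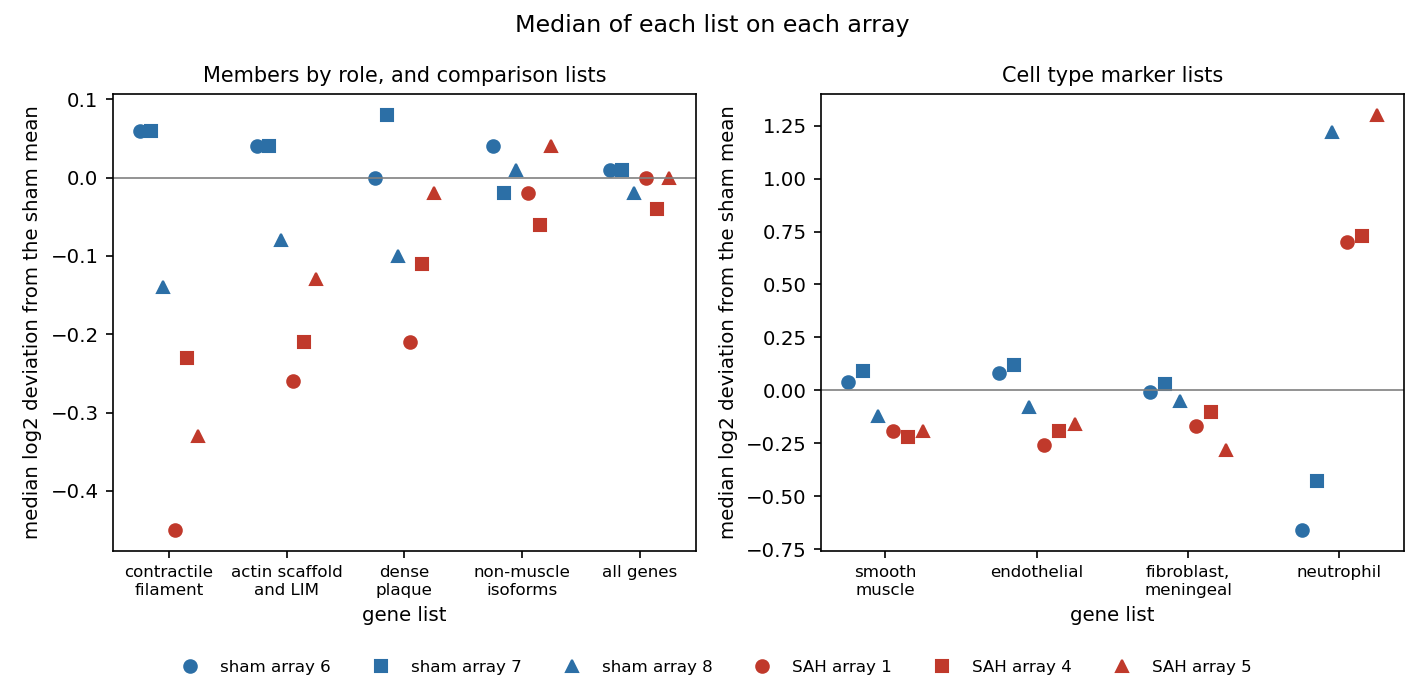
Median log2 deviation from the sham mean (y axis) on each array for members by role and for comparison lists (left), and for cell type marker lists (right, on a wider scale). The filament medians of the SAH arrays, -0.45 to -0.23, lie below those of all sham arrays, the plaque medians overlap, and neutrophil markers stand at 1.22 in sham array 8 and between 0.70 and 1.30 in the SAH arrays.

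Among genes for actin scaffolds and LIM proteins 10 of 11 were measured. Of these 1 fell (0.330% of all genes were called lower), none rose and 9 did not pass, with a median of -0.19. All SAH values lay below all sham values for 6 of the 10 (15.4% of all genes). Nexilin, which binds actin filaments at their anchors in muscle, read 8.48, 8.75 and 8.63 after SAH and 9.47, 9.53 and 9.25 in sham. The groups lay 0.50 apart. The difference of Nexn was -0.80 ± 0.12 (SE, n = 3 each; limma adjusted p = 0.0465). Its call rested on all 6 arrays: it was lost when any of them was left out, at adjusted p of 0.0519, 0.128 and 0.153 for SAH arrays 1, 4 and 5 and of 0.228, 0.202 and 0.0772 for sham arrays 6, 7 and 8, with differences between -0.88 and -0.73.

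The PDZ and LIM domain proteins tie alpha-actinin to other partners at dense bodies and plaques. Pdlim3 read 8.16, 8.51 and 8.61 after SAH and 9.29, 9.24 and 9.18 in sham, where the replicates varied little. The difference of Pdlim3 was -0.81 ± 0.14 (SE), as large as that of Nexn, and just missed the threshold (limma adjusted p = 0.0602). It passed without SAH array 1 (0.0357), with array weights (0.0374), with trend and robust options of eBayes (0.0414) and with dim probe sets removed (0.0232). Its relative Pdlim5 read 10.80, 10.65 and 10.75 against 11.09, 11.23 and 11.01 (difference -0.38 ± 0.10, SE), and Pdlim7 read 11.29, 11.13 and 11.30 against 11.45, 11.46 and 11.33 (difference -0.17 ± 0.10, SE). Ldb3, for another protein of this kind known best from the Z disc of striated muscle, overlapped between groups and differed by -0.10 ± 0.10.

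The LIM-only proteins Fhl1 and Fhl2 act as adaptors for integrins and transcription factors. Fhl2 read 8.93, 9.40 and 8.68 after SAH and 9.48, 9.25 and 9.59 in sham, so that SAH array 4 stood within the sham range (difference -0.44 ± 0.20, SE, and -0.28 without SAH array 5). Fhl1 differed by -0.20 ± 0.11, with SAH array 5 and sham array 6 both at 11.81. Csrp1, for a small LIM protein that binds alpha-actinin and zyxin, differed by -0.12 ± 0.09, and Filip1l, related to a filamin-interacting protein, by -0.12 ± 0.09. Filip1l was dim, at 6.36 to 6.52 where the array medians lay between 7.30 and 7.36, so that its values say little. Synpo2, for an actin-bundling partner of alpha-actinin and filamin, had overlapping groups and a difference of 0.02 ± 0.17.

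Of the transcription regulators Myocd, for myocardin, read 10.86, 10.04 and 10.57 after SAH and 10.87, 11.09 and 10.84 in sham. SAH array 1 lay at the sham level and SAH array 4 well below it (difference -0.45 ± 0.21, SE; limma adjusted p = 0.396). Srf read 10.39, 9.93 and 10.19 after SAH, while the sham arrays stood close together at 10.38, 10.35 and 10.37 (difference -0.20 ± 0.13, SE; limma adjusted p = 0.568). The groups overlapped for both genes. Without SAH array 4 the differences were -0.22 for Myocd and -0.08 for Srf, and without SAH array 1 that of Srf was -0.31. SAH array 4 was the lowest of its group for 9 of the 32 members (28.1%), Myocd, Srf and Itga7 among them, against 36.0% of all genes.

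Casq2, for calsequestrin, which stores calcium in the sarcoplasmic reticulum, was the only measured member that is no part of the cytoskeleton or its control. It read 10.85, 10.87 and 10.94 after SAH and 11.11, 11.16 and 11.08 in sham. The groups did not overlap, and the difference was -0.23 ± 0.09 (SE; limma adjusted p = 0.31).

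Because SRF binds the CArG box, the 250 bases before the transcription starts that RefSeq gives for the members were searched for it. The box was taken as CC, then 6 letters that are each A or T, then GG, a form that reads the same on both strands. The table of promoters on the GRCr8 assembly held 28 of the 35 members and lacked Tagln, Pdlim3, Itga7, Myh11, Lmod1, Myocd and Parva. A match stood before a start of 4 of the 28 genes (14.3%), namely Srf, Fhl1, Fhl2 and Ldb3, against 1.62% of the 27457 genes in the table. The genes that fell, Smtn and Nexn, had no match to this exact form in this window. Forms that differ from it by a base were not searched for in any gene, so the absence of such elements is not shown. Below are the 140 bases before the start, written 5′ to 3′ on the gene's strand, with each box in capitals, for the genes with a match and for the pair that fell. They are chr9:21923936-21924075 (plus strand, Srf), chrX:139638356-139638495 (plus, Fhl1), chr9:52923327-52923466 and chr9:52954541-52954680 (minus, Fhl2 starts 1 and 2), chr16:9924680-9924819 (minus, Ldb3), chr14:82644515-82644654 (minus, Smtn) and chr2:243878153-243878292 (minus, Nexn).
Srf: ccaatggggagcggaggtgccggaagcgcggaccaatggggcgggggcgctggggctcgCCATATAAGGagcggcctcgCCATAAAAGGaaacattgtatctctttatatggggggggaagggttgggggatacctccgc
Fhl1: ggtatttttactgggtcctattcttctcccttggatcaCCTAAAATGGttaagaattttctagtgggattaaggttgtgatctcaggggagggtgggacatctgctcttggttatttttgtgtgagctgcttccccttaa
Fhl2 start 1: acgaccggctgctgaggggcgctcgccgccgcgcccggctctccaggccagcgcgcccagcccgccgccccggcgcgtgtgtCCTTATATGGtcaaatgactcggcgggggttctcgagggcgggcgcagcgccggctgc
Fhl2 start 2: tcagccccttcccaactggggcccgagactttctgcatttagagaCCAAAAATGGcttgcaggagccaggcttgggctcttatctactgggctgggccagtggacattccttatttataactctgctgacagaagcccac
Ldb3: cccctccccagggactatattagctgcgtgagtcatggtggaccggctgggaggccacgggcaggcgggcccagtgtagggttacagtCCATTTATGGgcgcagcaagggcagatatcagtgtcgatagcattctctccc
Smtn: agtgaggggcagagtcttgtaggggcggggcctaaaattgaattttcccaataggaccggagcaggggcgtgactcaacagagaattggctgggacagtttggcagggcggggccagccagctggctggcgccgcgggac
Nexn: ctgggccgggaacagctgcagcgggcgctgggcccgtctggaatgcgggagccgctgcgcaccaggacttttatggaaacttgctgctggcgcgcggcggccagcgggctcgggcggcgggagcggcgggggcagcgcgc
Srf, known to regulate its own gene, held a pair of boxes, which began 81 and 61 bases before the start. The box of Fhl1 began 102 bases before one of its starts, those of Fhl2 58 and 95 bases before its starts, and that of Ldb3 52 bases before. The expression values of these 4 genes overlapped between the groups, and their differences lay between -0.44 and -0.10. A match in sequence is a description and not evidence of binding.

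Related members were compared within each array, which asks whether their ratio differed between the groups. For 8 pairs the exact two-sided permutation test over arrays could give no p below 0.1. The groups did not overlap for 6 pairs, each with an exact permutation p = 0.1 (0.133 after Benjamini-Hochberg adjustment over the 8 pairs), so none could pass. The Pdlim pairs share genes and are not separate observations. Itga7 minus Itga8 was -1.36, -2.47 and -1.91 after SAH and -0.87, -0.98 and -1.20 in sham, a shift of -0.90. Pdlim3 minus Pdlim7 shifted by -0.64, Pdlim3 minus Pdlim5 by -0.43 (-0.26 without SAH array 1) and Pdlim5 minus Pdlim7 by -0.20. The order of these differences from sham was therefore Pdlim3, Pdlim5, Pdlim7 on each SAH array.

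The partners Ilk and Parva bind each other in a complex at integrin tails. Ilk minus Parva was -0.89, -0.75 and -0.74 after SAH and -0.59, -0.58 and -0.60 in sham, a shift of -0.20 with little spread. Myocd minus Srf shifted by -0.25, and the nearest values of the groups, on SAH array 1 and sham array 8, both stood at 0.47 after rounding. That shift was -0.15 without SAH array 4 and -0.16 without sham array 7. The tropomyosin pair had a shift of -0.07 and the Fhl pair of 0.24, with overlapping groups (exact permutation p = 0.9 and 0.7). With an array left out these shifts ran from -0.12 to 0.02 and from 0.00 to 0.49.

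**Figure D4:**
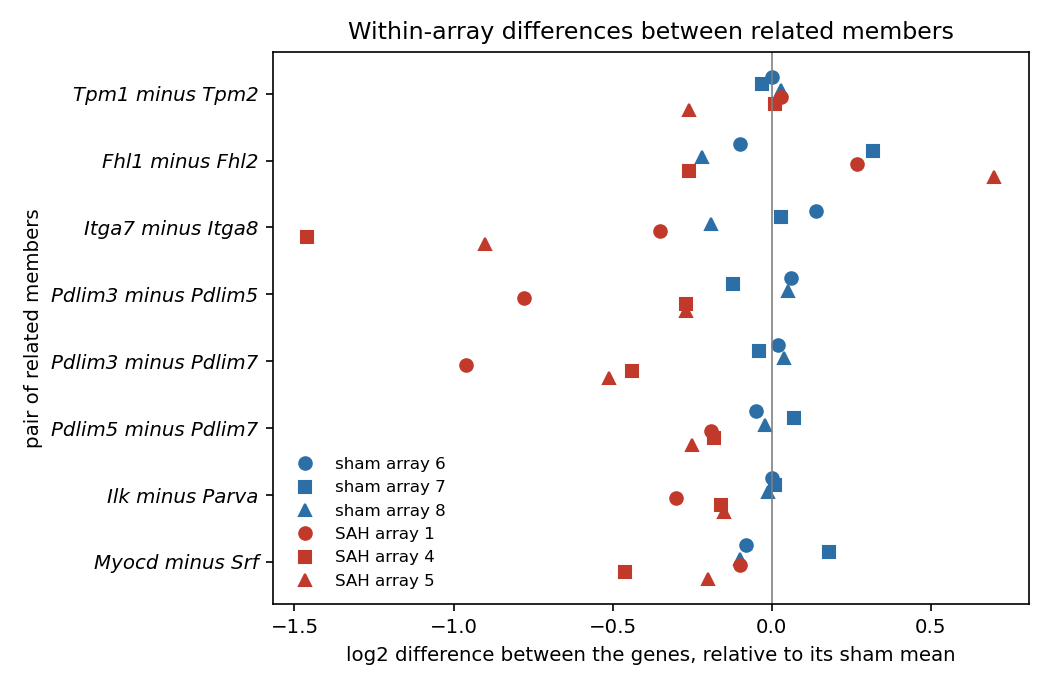
Log2 difference between the genes of each pair on each array, relative to its sham mean (x axis), for 8 pairs of related members (y axis). The groups overlap for Tpm1 minus Tpm2 and Fhl1 minus Fhl2. For the other 6 pairs the SAH arrays lie to the left of the sham arrays, most for Itga7 minus Itga8 (a shift of -0.90). For Myocd minus Srf the points of SAH array 1 and sham array 8 coincide after rounding.

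Further genes of the same machinery, 157 in 5 lists, were read beside the members. Of the 131 measured 4 fell and none rose, with a median of -0.11. Over all genes 0.330% were called lower and 0.963% higher. At an unadjusted limma p under 0.05, 10.5% of all genes were lower and 8.16% higher, shares that apply to each list below. The contractile and filament list had 2 falls among 31 (median -0.16). They were Pln, for phospholamban, which restrains the calcium pump, at -0.79 ± 0.11 (SE; limma adjusted p = 0.039), and Ppp1r14a, for an inhibitor of myosin phosphatase, at -1.18 ± 0.19 (0.0496). The call of Ppp1r14a ended with repeated quantile normalization (0.0544) and with array medians subtracted (0.0517). At an unadjusted p under 0.05, 9 genes of this list were lower and 1 higher. Among 45 other plaque and adhesion genes 1 fell (median -0.09), while at an unadjusted p under 0.05 the lower ones numbered 14 and the higher ones 8. The gene that fell was Lims2, for a PINCH protein that joins Ilk and parvin in their complex, which read 9.66, 9.46 and 9.53 after SAH and 10.49, 10.41 and 10.20 in sham (difference -0.82 ± 0.12, SE; limma adjusted p = 0.0394). Its difference stood beside -0.15 for Ilk and 0.05 for Parva. Differences above 0 in this list reached 1.57 ± 0.31 for the integrin chain gene Itga2, and that of Ptk2, for focal adhesion kinase, was 0.91 ± 0.17 (limma adjusted p of 0.0918 and 0.0764). Both were chosen after their values were seen. They passed with dim probe sets removed (0.0393 and 0.0316), with array weights (0.0473 and 0.0396) and without SAH array 1 (0.0302 and 0.00844).

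Among 22 other scaffold and LIM genes 1 fell (median -0.15), with 8 lower and 1 higher at an unadjusted p under 0.05. Crip2, for a LIM protein of the cysteine-rich family, read 10.12, 10.43 and 10.20 after SAH and 11.27, 11.36 and 11.06 in sham (difference -0.98 ± 0.13, SE; limma adjusted p = 0.0314). The list of SRF cofactors and regulators of smooth muscle phenotype had none called among 21 by limma (median -0.03). At an unadjusted p under 0.05, 2 of that list were lower (9.52%, against 10.5% of all genes) and 1 higher. There Tead3, for a factor that pairs with coactivators of the Hippo pathway, differed by -0.53 ± 0.11 and Mef2c, for a muscle transcription factor, by -0.45 ± 0.12 (adjusted p of 0.102 and 0.174). Cytoskeleton isoforms that most cells use had a median of -0.01 and none called among 12 by limma. At an unadjusted p under 0.05, 1 of these was lower (8.33%, against 10.5% of all genes) and none higher. In that list the myosin gene Myh10 differed by -0.37 ± 0.12 and the light chain gene Myl12b by -0.17 ± 0.09 (adjusted p of 0.237 and 0.459). Calls in these lists also fell away: leaving out SAH array 4 or 5, or any of the sham arrays, left none of the 4 past the threshold.

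Markers of the cells that a piece of artery holds were read in the same way. Their counts stand beside the same shares of all genes, 10.5% lower and 8.16% higher at an unadjusted limma p under 0.05. Arteries were measured whole, so fewer cells of a type and less RNA per cell cannot be told apart. Smooth muscle markers outside the members were bright on every array, with a mean log2 level of 11.67 to 11.90 in sham and 11.35 to 11.48 after SAH. Among 10 of them 2 fell, Pln and Ppp1r14a, and 4 were lower and none higher at an unadjusted p under 0.05. Differences were below 0 for 9 of the 10 (52.7% of all genes), 4 were at least 1.5-fold lower (2.73% of all genes), and the median was -0.17. Markers of striated muscle, which shares Des, Ldb3 and Casq2, had a mean level of 7.33 to 7.42 over both groups and a median difference of -0.01. None of the 14 was called by limma, with 1 higher and none lower at an unadjusted p under 0.05 (Myh6 at 0.28 ± 0.11 and Acta1 at -0.24 ± 0.13).

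The other wall cells had medians close to those of the members. Endothelial markers (10 measured) had a median of -0.24, with Cdh5 at 0.61 ± 0.11 (SE) and Nos3 at -0.39 ± 0.11. Fibroblast and leptomeningeal markers (12 measured, all below 0) had a median of -0.20, with Slc6a13 at -1.20 ± 0.45 and Aldh1a2 at -0.86 ± 0.37. None of either list was called by limma. At an unadjusted p under 0.05, 3 endothelial markers were lower and 1 higher, and 1 fibroblast marker was lower.

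For neutrophil markers all 16 differences were above 0 (8599 of all 18166 genes), and the median was 0.98. The groups overlapped for 14 of them (13291 of all genes). At an unadjusted limma p under 0.05, 4 were higher and none lower. The 1 that passed was the Fc receptor gene Fcgr3a, which macrophages also express (1.90 ± 0.22, SE, limma adjusted p = 0.0214). Trem1 differed by 1.79 ± 0.65. The mean log2 level of the list was 7.44, 7.62 and 9.28 on sham arrays 6, 7 and 8, and on the SAH arrays it ran from 8.85 on array 1 to 9.69 on array 5. Sham array 8, where it was high, gave the lowest sham value of 28 of the 32 members, including all 9 filament genes, against 41.1% of all genes. Among sham arrays, array 8 also had the highest mean level of macrophage (9.92) and brain cell markers (8.17). It had the lowest of smooth muscle, endothelial and fibroblast markers. SAH array 5, the highest of its group for the neutrophil mean, gave the highest SAH value of 9 of the 10 plaque genes and of 1 of the 9 filament genes. Of all 32 members it gave the highest SAH value for 15, against 6024 of all 18166 genes. It gave the lowest for 7 members (21.9%, against 31.4% of all genes). The neutrophil mean was higher on every SAH array than on sham arrays 6 and 7. Only on sham array 8 did it lie within the SAH range. A fit with it thus tells neutrophil content from group mainly through sham array 8, and cannot settle the part of either. With the neutrophil mean of each array as a covariate in limma no member was called, and 4 were lower at an unadjusted p under 0.05. The share of all genes was not counted for this fit. The differences were then -0.99 ± 0.14 (SE) for Smtn, -0.68 ± 0.15 for Nexn, -1.02 ± 0.35 for Itga7 and -0.84 ± 0.19 for Pdlim3, with adjusted p of 0.0951, 0.264, 0.466 and 0.263. For Myh11 and Tpm1 they were -0.27 ± 0.13 and -0.31 ± 0.14, and the filament and plaque medians were -0.27 and -0.08.

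Medians of the other cells were smaller in size than that of the neutrophil markers, but that of the macrophage markers was larger in size than the members' median of -0.22. Macrophage markers (14 measured, none called by limma, 6 lower and 2 higher at an unadjusted p under 0.05) had a median of -0.44, with Csf1r at -0.50 ± 0.11 and Fcer1g at 0.54 ± 0.15. Brain cell markers (10 measured) had a median of 0.13, with Mbp at 0.58 ± 0.20 and Mag at 0.28 ± 0.13, and red cell markers (4 measured) a median of 0.30, with Slc4a1 at 0.40 ± 0.15 and Hba-a1 at 0.34 ± 0.20. None of either list was called by limma, with 1 of each higher and none lower at an unadjusted p under 0.05. The part of these cells in the members' differences was not tested.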

How the data were processed

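Arrays of 6 samples were analysed, 3 of arteries after SAH and 3 of sham arteries, each labelled from 6 µg of total RNA. The deposited values are log2 expression values that the authors made with Affymetrix Expression Console 1.1.2 and RMA, per the submitters' processing notes. RMA corrects background, normalizes quantiles and summarises probe sets, so a change in total RNA cannot be seen. Settings, genome build, batches and scan dates were not given in the sources used here. SAH samples bear the lower array numbers and sham samples the higher.

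From 36685 probe sets 190 Affymetrix controls were set aside. Of the 36495 tested, GEO's platform annotation, with symbols updated through RefSeq (GRCr8), gave 1 gene for 18511, several for 575 and none for 17409. A gene was represented by its probe set with the highest mean over all arrays.

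The comparison used lmFit and eBayes of limma 3.58.1 (R 4.3.3), two-sided and without covariates. Pairs were compared with scipy 1.17.1. The number of arrays limits the precision: tested on simulated data (10 runs of 200 changed among 36495 probe sets), limma recovered 2.6% of log2 changes of 0.5, 71.8% of 1 and 93.4% of 1.5, so changes of the size most members show would seldom be called. The members, gene lists and tests were chosen with earlier results of these data known. All members are named, and from each pathway list the called genes or else the 2 with the smallest p, and from each marker list these 2 (the neutrophil and smooth muscle markers included). Alternatives were to keep only probe sets above the array median on at least 3 arrays, repeated quantile normalization, subtracted medians, array weights, eBayes with trend and robust options, a threshold of 0.10 on the adjusted p, means over a gene's probe sets, each array left out, and the neutrophil covariate.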

Additional observations from a re-analysis of the deposited data

How the results depend on the processing

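The count of members called lower was 2, and 4 with dim probe sets removed, where fewer probe sets were adjusted over, 0 with the neutrophil covariate (4 at an unadjusted p under 0.05 in limma), and between 0 and 3 with an array left out. These were 3 without SAH array 1, 1 without sham array 8 and 0 without each of the others, where 8 to 12 members were lower at an unadjusted p under 0.05. No member was called higher in any of these fits or at an adjusted p under 0.10, and none was higher at an unadjusted p under 0.05. For the other pathway genes, whose alternatives were added after the data were seen, the count called lower was 4, and 12 with dim probe sets removed, 9 at an adjusted p under 0.10, 0 with the neutrophil covariate (18 at an unadjusted p under 0.05) and 0 to 5 with an array left out. The count called higher was 0 (11 at an unadjusted p under 0.05), and 2 with dim probe sets removed, with array weights or at an adjusted p under 0.10, and 0 to 4 with an array left out. Shares of all genes were not counted under these alternatives, so their counts have no background beside them. The filament median lay between -0.37 and -0.27 and the plaque median between -0.14 and -0.06 over all alternatives.

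Members near 0 changed sign in some fits, none of them called: Vcl was -0.03 without SAH array 5 and without sham array 8, and Tln1 was 0.01 with array weights and 0.07 without SAH array 1. Parva was -0.0041 without sham array 8. Itgb1 ran from -0.04 to 0.02 with an array left out, and was 0.01 with repeated quantile normalization, without SAH array 1 and without sham array 6, 0.02 without SAH array 4 and without sham array 7, and 0.03 with the neutrophil covariate. Synpo2 ran from -0.12 without SAH array 4, over -0.07 without sham array 8, to 0.18 without SAH array 1. The cause was not tested. Each measured member had 1 probe set, so averaging probe sets changed nothing. No paired analysis was possible because the groups share no array number.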
